A study of Mus musculus with 4 samples.

Results

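The genes described here are 10 genes of the trophectoderm, taken by symbol from a table of read counts for 50559 genes: *Tead4*, *Cdx2*, *Gata3*, *Tfap2c*, *Eomes*, *Elf5*, *Gata2*, *Hand1*, *Krt8* and *Krt18*. All 10 were found in the table, once each. They were measured by poly(A)+ RNA-seq in 4 libraries of the mouse embryonic stem cell (ESC) line E14. All of the libraries came from cells that carried an shRNA and an expression vector. The control (shscr+EV) had a scrambled shRNA and the empty vector, and the knockdown (shYthdf2+EV) had an shRNA against *Ythdf2* and the empty vector. The rescue libraries had the shRNA against *Ythdf2* with wild-type YTHDF2 (shYthdf2+WT) or with YTHDF2 mutated at its m6A-binding site (shYthdf2+Mut). YTHDF2 is a cytoplasmic reader of N6-methyladenosine (m6A) that recruits the CCR4-NOT deadenylase to methylated mRNAs. Per the study's methods, the shRNA lines were stable lines made with lentivirus and puromycin, and the ESCs were grown on gelatin in medium with LIF and serum replacement. The labels give 1 library per group, so the differences below rest on single libraries and carry no p-value.

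The trophectoderm is the outer epithelium of the blastocyst and the founder of the trophoblast of the placenta. In outer cells, where Hippo signalling is low, YAP enters the nucleus and works with TEAD4 to switch on *Cdx2* and *Gata3*, while the inner cells keep *Pou5f1* and *Nanog*. TFAP2C, EOMES and ELF5 maintain the trophoblast programme with CDX2, GATA2 and HAND1 act as trophoblast cells mature, and KRT8 and KRT18 pair into the intermediate filaments of this first epithelium. ESCs derive from the inner cells and normally do not make trophoblast. Several of the genes also work outside this lineage: *Tfap2c* and *Tead4* are active in ESCs, *Eomes* and *Hand1* in early mesoderm, and *Krt8* and *Krt18* in most simple epithelia.

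In the mm39 annotation of the table, *Krt8* lies on the minus strand at chr15:101905146-101912777 and *Krt18* on the plus strand at chr15:101936651-101940461. They are neighbours that point away from each other, with 23874 bases between their outermost starts. *Tead4* (chr6:128204106-128277776) and *Gata2* (chr6:88170873-88184014) share a chromosome, as do *Gata3* (chr2:9861889-9892762), *Elf5* (chr2:103242443-103281334) and *Tfap2c* (chr2:172387599-172400542). *Cdx2* lies at chr5:147237710-147244059, *Eomes* at chr9:118307254-118315200 and *Hand1* at chr11:57719539-57722973.

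The keratin pair had the widest ranges of level among the members with a mean of at least 50 reads, so the 250 bases before their starts are shown, 5′ to 3′ on the strand of the gene. The sequences are those of RefSeq on GRCm38.p6, an older build than that of the counts, at chr15:102004343-102004592 (minus strand) for *Krt8* and chr15:102027966-102028215 (plus strand) for *Krt18*. Capitals mark a GATA-type match (AGATAA) in *Krt8* and an AP-2-type match (GCCNNNGGC) in *Krt18*.
Krt8: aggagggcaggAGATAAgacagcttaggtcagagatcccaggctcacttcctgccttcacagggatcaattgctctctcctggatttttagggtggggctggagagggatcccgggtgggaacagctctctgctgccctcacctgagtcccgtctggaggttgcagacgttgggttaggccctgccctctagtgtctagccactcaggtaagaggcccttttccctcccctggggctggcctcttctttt
Krt18: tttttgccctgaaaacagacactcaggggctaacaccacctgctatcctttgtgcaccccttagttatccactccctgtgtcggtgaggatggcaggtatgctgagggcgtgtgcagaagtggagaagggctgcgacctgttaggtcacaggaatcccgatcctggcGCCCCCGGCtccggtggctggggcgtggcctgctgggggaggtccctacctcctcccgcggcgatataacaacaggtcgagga
The match in *Krt8* lay at -239 to -234 from the start, and that in *Krt18* at -83 to -75. On either strand, AGATAA was present in 9.99% and GCCNNNGGC in 13.7% of 32851 such windows of the RefSeq set. A TEAD-type motif (GGAATG, 12.6% of windows) and a CDX-type motif (TTTATG, 10.8%) were not found in these windows of the keratin genes. RefSeq windows were matched for 7 of the members, in 9 windows: GCCNNNGGC was also found before *Cdx2*, *Gata2* and *Gata3*, GGAATG before *Gata2* and *Elf5*, and TTTATG before *Elf5*. A match of letters is a description of the window and not a binding site.

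Libraries held between 31533129 and 35742335 reads on genes, and reads, not read pairs, were counted. The table therefore counts a pair about 2 times, and all intervals below are 95% intervals computed on pairs. They cover counting error only, not the spread between cultures. *Ythdf2*, the targeted gene, had 2806 reads in shscr+EV, 662 in shYthdf2+EV, 7661 in shYthdf2+WT and 6925 in shYthdf2+Mut, so the knockdown library held 20.8% of the control level and both rescue libraries were above the control. The ESC genes *Pou5f1* (555.7 to 608.7 FPKM) and *Nanog* (362.7 to 403.4 FPKM) were high in all 4 libraries. The libraries also differed apart from *Ythdf2*: 7 Y-linked genes together had 4 reads in shscr+EV, 672 in shYthdf2+EV, 105 in shYthdf2+WT and 602 in shYthdf2+Mut, and mitochondrial transcripts took 8.44%, 6.75%, 6.34% and 6.14% of the reads. The Y-linked reads were low in shscr+EV and shYthdf2+WT and high in the other two libraries, which is the split that several of the genes below follow, and their part in those results was not tested. None of the 10 genes is on the Y chromosome. None is on chromosome 12 either, the genes of which had a median log2 ratio of -0.29 in shYthdf2+EV against shscr+EV.

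The 10 genes fell into 2 ranges of level. Levels between genes are compared in FPKM, reads scaled to exon length and to the TMM-scaled size of the library. Averaged over the 4 libraries, *Krt8* (15.3 FPKM), *Tfap2c* (15.2 FPKM) and *Tead4* (14.7 FPKM) were highest, followed by *Krt18* (7.97 FPKM) and *Eomes* (6.41 FPKM). *Hand1* (1.18 FPKM), *Gata2* (0.603 FPKM), *Gata3* (0.306 FPKM), *Elf5* (0.191 FPKM) and *Cdx2* (0.152 FPKM) were low. The order of the upper 3 depended on the library: in shscr+EV, *Krt8* at 21.3 FPKM (19.7 to 23.1) was above *Tfap2c* at 17.5 FPKM (16.5 to 18.6), and in shYthdf2+EV it was below, at 10.3 FPKM (9.25 to 11.5) against 13.0 FPKM (12.1 to 13.9). *Tead4* and *Tfap2c* had overlapping intervals in each of the 4 libraries. At the low end, the intervals of *Cdx2*, *Elf5* and *Gata3* overlapped in shscr+EV, and *Cdx2*, the master regulator of the lineage, had no more than 14 reads in any library. The RNA of the defining trophectoderm regulators *Cdx2*, *Gata3* and *Elf5* was scarce in these ESC libraries, and that of *Krt8*, *Krt18*, *Tead4* and *Tfap2c* was not.

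**Figure D1:**
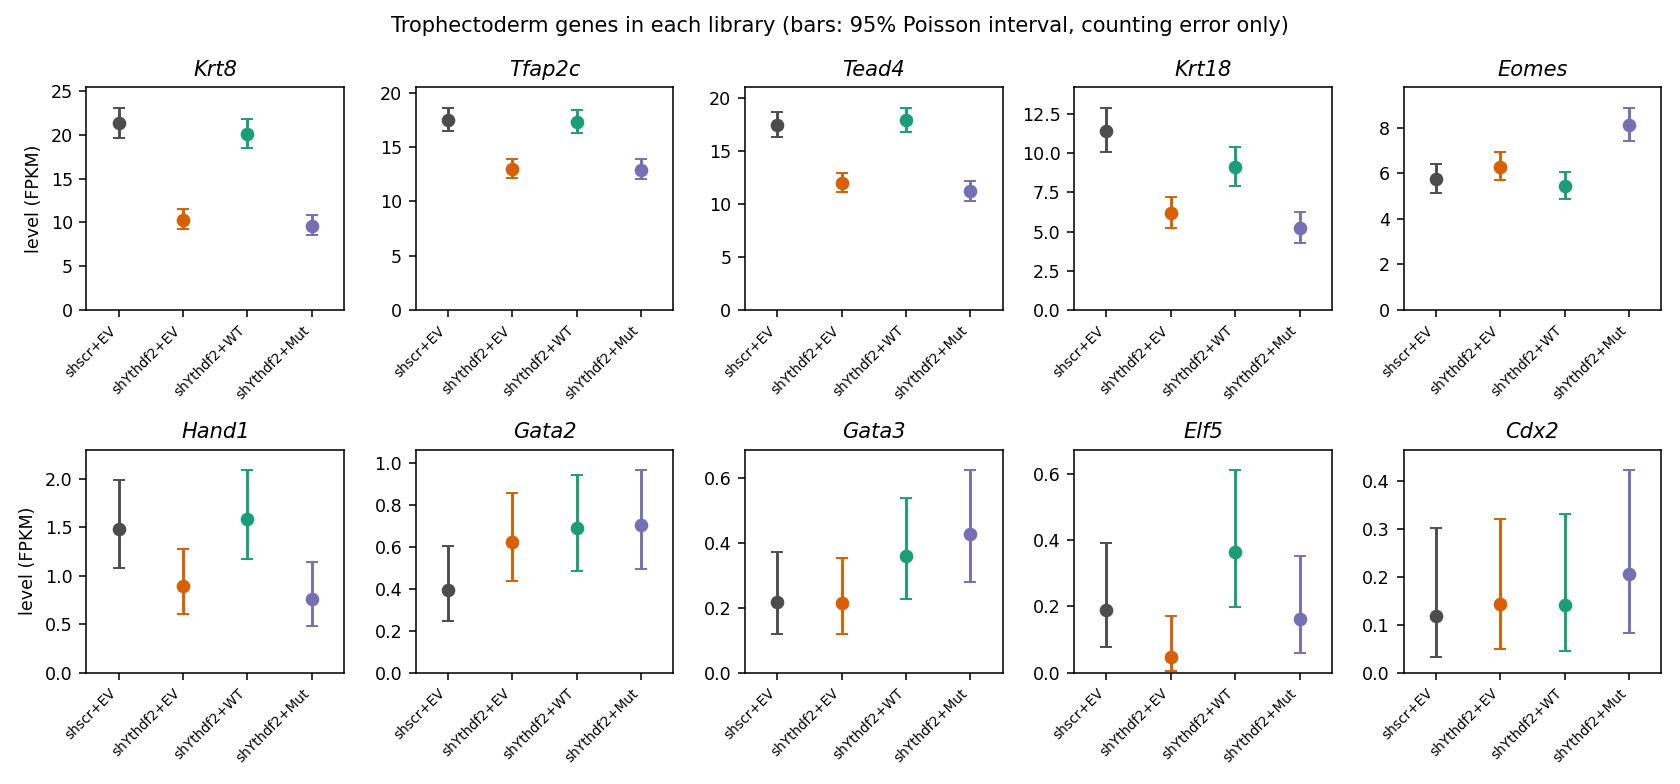
Level of each trophectoderm gene (FPKM, linear axis from 0, a different scale in each panel) in the 4 libraries, 1 point per library, with bars for the 95% Poisson interval on read pairs. *Krt8* stood at 21.3 and 20.1 FPKM in shscr+EV and shYthdf2+WT and at 10.3 and 9.63 FPKM in shYthdf2+EV and shYthdf2+Mut, and *Tead4*, *Tfap2c* and *Krt18* were arranged alike, while *Eomes* was highest in shYthdf2+Mut.

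*Tead4* encodes the DNA-binding partner of YAP at the head of the trophectoderm programme. It had 1699 reads in shscr+EV, 1328 in shYthdf2+EV, 1814 in shYthdf2+WT and 1098 in shYthdf2+Mut. shscr+EV and shYthdf2+WT were thus high and shYthdf2+EV and shYthdf2+Mut low, and the intervals of the levels did not overlap between the high and the low libraries. The log2 ratio was -0.54 (-0.69 to -0.39) in shYthdf2+EV against shscr+EV, which is 68.7% of the control level. It was 0.58 (0.43 to 0.72) in shYthdf2+WT against shYthdf2+EV and -0.10 (-0.26 to 0.07) in shYthdf2+Mut against shYthdf2+EV. Between the rescue libraries, shYthdf2+Mut was lower than shYthdf2+WT by a log2 ratio of -0.67 (-0.83 to -0.52).

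*Cdx2* had 8, 11, 10 and 14 reads in shscr+EV, shYthdf2+EV, shYthdf2+WT and shYthdf2+Mut. Its log2 ratio in shYthdf2+EV against shscr+EV was 0.26 (-1.87 to 2.57), and the intervals of all 4 comparisons held 0, so no difference in either direction was detectable at this depth. *Gata3*, which acts beside *Cdx2* downstream of TEAD4, had 27, 30, 46 and 53 reads in the same order. Both rescue libraries were above both empty-vector libraries, but the interval excluded 0 only in shYthdf2+Mut against shYthdf2+EV, where the log2 ratio was 0.98 (0.03 to 2.02). Relative to genes of like GC content and length, at 0.94, that interval held 0. In shYthdf2+EV against shscr+EV the log2 ratio of *Gata3* was -0.03 (-1.20 to 1.14).

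*Tfap2c* encodes the AP-2 factor that trophoblast stem cells require and that ESCs also make. It had 2050 reads in shscr+EV, 1728 in shYthdf2+EV, 2106 in shYthdf2+WT and 1522 in shYthdf2+Mut, the best counted of the 10 genes. The libraries split as for *Tead4*, with smaller steps. The log2 ratio was -0.43 (-0.56 to -0.30) in shYthdf2+EV against shscr+EV, 0.41 (0.28 to 0.54) in shYthdf2+WT against shYthdf2+EV, and -0.01 (-0.15 to 0.14) in shYthdf2+Mut against shYthdf2+EV. In shYthdf2+Mut against shYthdf2+WT it was -0.42 (-0.56 to -0.28).

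*Eomes*, a T-box factor of trophoblast stem cells and of the primitive streak, did not follow *Tead4* and *Tfap2c*. It had 675 reads in shscr+EV, 841 in shYthdf2+EV, 668 in shYthdf2+WT and 961 in shYthdf2+Mut. The log2 ratio in shYthdf2+EV against shscr+EV was 0.13 (-0.08 to 0.34), and that in shYthdf2+WT against shYthdf2+EV was -0.20 (-0.42 to 0.01), both with 0 in the interval. The library with the mutant protein was the highest of the 4, at a log2 ratio of 0.37 (0.18 to 0.56) against shYthdf2+EV, 0.57 (0.37 to 0.78) against shYthdf2+WT and 0.50 (0.30 to 0.70) against shscr+EV. *Elf5*, an ETS factor that keeps trophoblast stem cells in their state, had 14 reads in shscr+EV, 4 in shYthdf2+EV, 28 in shYthdf2+WT and 12 in shYthdf2+Mut. Its log2 ratio in shYthdf2+EV against shscr+EV was -1.86, with an interval from -5.30 to 0.40. In shYthdf2+WT against shYthdf2+EV it was 2.78 (0.81 to 6.11), the widest difference of any member in the 4 comparisons, and one that rests on 4 reads in shYthdf2+EV.

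The genes of later trophoblast differed from each other. *Hand1*, a basic helix-loop-helix factor of trophoblast giant cells, had 89 reads in shscr+EV, 61 in shYthdf2+EV, 99 in shYthdf2+WT and 46 in shYthdf2+Mut, the same order of high and low libraries as *Tead4*. Unlike for *Tead4*, the intervals of the levels overlapped, with 0.605 to 1.27 FPKM in shYthdf2+EV and 1.08 to 1.99 FPKM in shscr+EV. Its log2 ratio was -0.73 (-1.45 to -0.03) in shYthdf2+EV against shscr+EV, 0.82 (0.15 to 1.53) in shYthdf2+WT against shYthdf2+EV, -0.23 (-1.08 to 0.60) in shYthdf2+Mut against shYthdf2+EV and -1.05 (-1.84 to -0.32) in shYthdf2+Mut against shYthdf2+WT. *Gata2* had 42, 75, 76 and 75 reads: shscr+EV was the lowest, and the 3 libraries with the *Ythdf2* shRNA were close to each other. Its log2 ratio against shscr+EV was 0.64 (-0.16 to 1.5) for shYthdf2+EV, 0.79 (-0.01 to 1.64) for shYthdf2+WT and 0.82 (0.02 to 1.67) for shYthdf2+Mut.

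*Krt8* and *Krt18* encode the type II and type I keratins of the first epithelium. *Krt8* had 1217 reads in shscr+EV, 670 in shYthdf2+EV, 1193 in shYthdf2+WT and 553 in shYthdf2+Mut. The knockdown library held 48.4% of the control level, a log2 ratio of -1.05 (-1.24 to -0.85), and 5.21% of the 18586 genes compared had a lower ratio. With wild-type YTHDF2 it was higher than in shYthdf2+EV by a log2 ratio of 0.96 (0.76 to 1.16) and differed from the control by -0.09 (-0.25 to 0.08), or by -0.23 (-0.40 to -0.07) relative to genes of like GC content. With mutant YTHDF2 it differed from shYthdf2+EV by -0.10 (-0.34 to 0.13) and from shYthdf2+WT by -1.06 (-1.27 to -0.85). *Krt18* had 505, 311, 419 and 232 reads in the same order, the same split of libraries. Its log2 ratio was -0.88 (-1.18 to -0.59) in shYthdf2+EV against shscr+EV, 0.56 (0.25 to 0.87) in shYthdf2+WT against shYthdf2+EV, -0.25 (-0.61 to 0.11) in shYthdf2+Mut against shYthdf2+EV and -0.80 (-1.14 to -0.47) in shYthdf2+Mut against shYthdf2+WT. *Krt18* in shYthdf2+WT was below the control, by a log2 ratio of -0.33 (-0.60 to -0.06). The FPKM ratio of *Krt8* to *Krt18* was 1.87 in shscr+EV, 1.67 in shYthdf2+EV, 2.21 in shYthdf2+WT and 1.85 in shYthdf2+Mut. In these bulk libraries, fewer cells that express a keratin cannot be told apart from less keratin RNA in each cell.

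**Figure D2:**
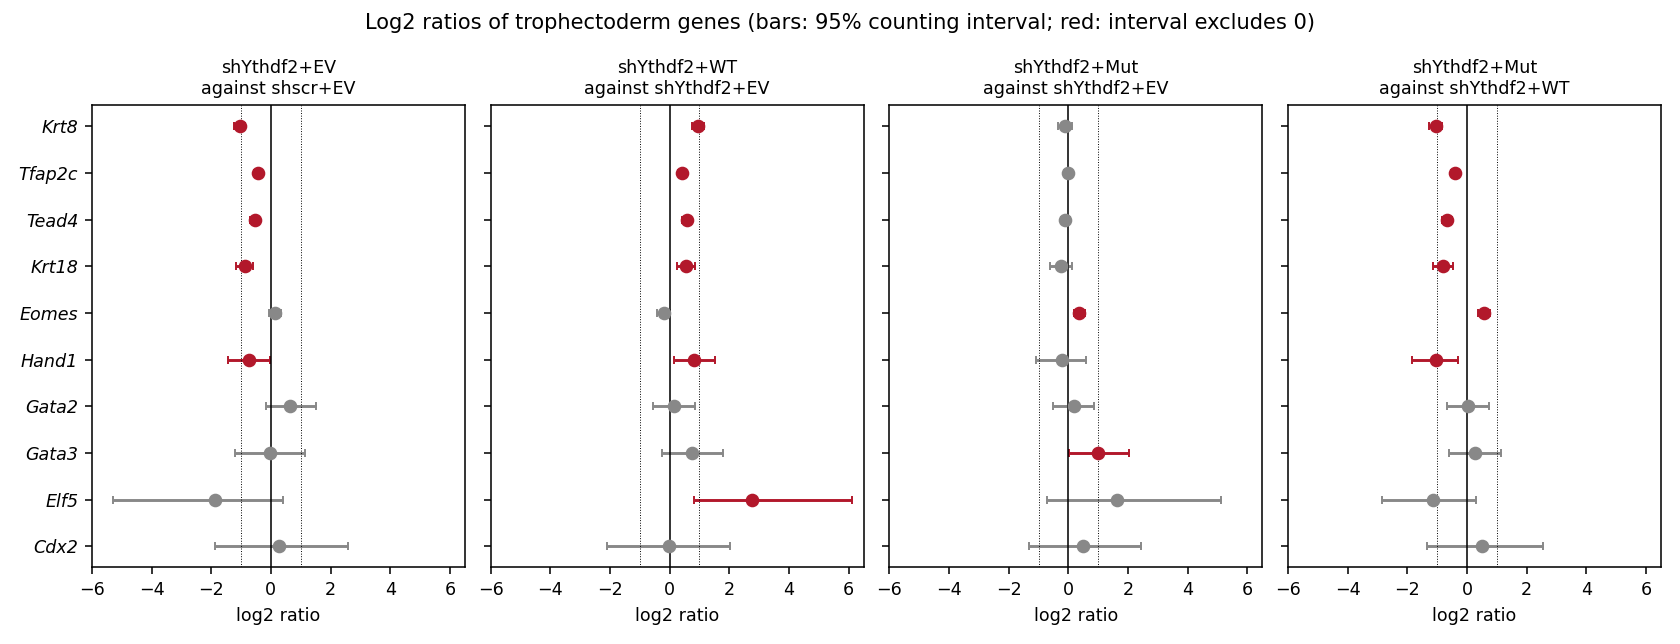
Log2 ratio of each trophectoderm gene in the 4 comparisons (horizontal axis), with bars for the 95% counting interval, red where the interval excludes 0, and dotted lines at a 2-fold difference. *Krt8*, *Tfap2c*, *Tead4*, *Krt18* and *Hand1* lay left of 0 in shYthdf2+EV against shscr+EV and in shYthdf2+Mut against shYthdf2+WT and right of 0 in shYthdf2+WT against shYthdf2+EV, and the bars of *Cdx2* and *Elf5* were the widest.

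The comparison of shYthdf2+EV with shscr+EV asks what loss of *Ythdf2* does. All 10 members passed the filter of a mean of at least 10 reads. Of the 10, 5 (*Krt8*, *Krt18*, *Tead4*, *Tfap2c* and *Hand1*) had a counting interval below 0 and 0 had one above. Of all 18586 genes compared, 22.9% had an interval below 0 and 23.2% one above. *Hand1*, whose interval ended close to 0, was lost from the 5 when libraries were scaled by total reads or ratios were taken relative to genes of like GC content. At least 2-fold lower were 2 of the 10, *Krt8* and *Elf5*, beside 5.70% of all genes compared, and 0 were 2-fold higher, beside 7.10%. The median log2 ratio of the 10 was -0.49, with a range from -1.86 to 0.64, and that of all genes compared was -0.00. Summed over the 10 genes, the level was 75.9 FPKM in shscr+EV and 49.7 FPKM in shYthdf2+EV. That gap lay in *Krt8*, *Krt18*, *Tead4* and *Tfap2c*, which summed to 67.8 against 41.5 FPKM. The other 6 genes summed to 8.15 and 8.21 FPKM, which does not mean that each was level. Among them, *Eomes* was at 5.75 and 6.29 FPKM and *Hand1* at 1.48 and 0.894 FPKM.

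The rescue libraries address whether the wild-type protein, and its m6A-binding site, bear on these levels. In shYthdf2+WT against shYthdf2+EV, 6 of the 10 had an interval above 0 (the 5 genes above and *Elf5*), beside 21.1% of all genes compared, and 0 had one below, beside 21.5%. Relative to genes of like GC content, 5 had an interval above 0, without *Hand1*, and 1 had one below, *Eomes*. The median was 0.57, beside 0.00 over all genes compared. A difference of 2-fold or more was reached by *Elf5* alone, which was higher; 5.15% of all genes were that much higher and 5.58% that much lower. This comparison shares the shYthdf2+EV library with the one before it, so the opposite signs of the 5 genes are not a separate observation. In shYthdf2+Mut against shYthdf2+EV, 2 of the 10 had an interval above 0 (*Eomes* and *Gata3*), beside 14.7% of all genes, and 0 had one below, beside 12.9%. The median was 0.08, beside 0.01 over all genes compared, and 1 of the 10, *Elf5* with its few reads, was 2-fold higher, beside 2.65% of all genes higher and 3.38% lower. The sums over the 10 genes were 73.0 FPKM in shYthdf2+WT and 49.4 FPKM in shYthdf2+Mut.

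In shYthdf2+Mut against shYthdf2+WT, 5 of the 10 had an interval below 0 (*Krt8*, *Krt18*, *Tead4*, *Tfap2c* and *Hand1*), beside 23.6% of all genes compared, and 1 had one above (*Eomes*), beside 23.9%. At least 2-fold lower were 3 of the 10 (*Krt8*, *Hand1* and *Elf5*), beside 6.21% of all genes, and 0 were 2-fold higher, beside 5.40%. The median was -0.55, and -0.01 over all genes compared. These 2 libraries are distinct from shscr+EV and shYthdf2+EV, so the pairs can be set side by side, although all come from the E14 line and 3 of the 4 carry the *Ythdf2* shRNA. The same 5 members had intervals below 0 in both pairs, beside 10.5% of all genes compared, and 0 members had intervals above 0 in both, beside 11.2%. The pairs were also separated alike by their Y-linked reads, as given above.

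**Figure D3:**
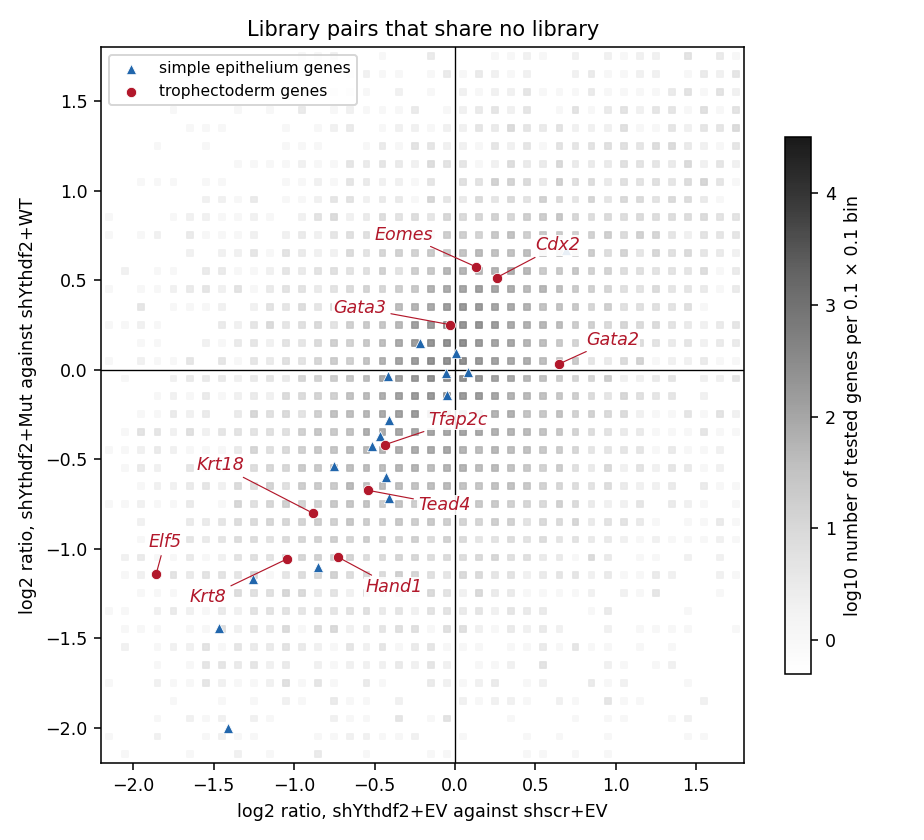
Log2 ratio in shYthdf2+EV against shscr+EV (horizontal axis) and in shYthdf2+Mut against shYthdf2+WT (vertical axis), with grey bins for the number of genes compared (log10 scale), red circles for the 10 trophectoderm genes and blue triangles for genes of simple epithelium. *Krt8*, *Krt18*, *Hand1*, *Tead4*, *Tfap2c* and *Elf5* lie in the lower left part, below 0 on both axes, with *Elf5* resting on few reads.

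The base composition of the genes moved with the ratios that involve shYthdf2+WT. Over 16726 of the 18586 genes, those with a known GC content, the rank correlation of GC content with the log2 ratio was 0.34 in shYthdf2+WT against shYthdf2+EV and -0.39 in shYthdf2+Mut against shYthdf2+WT, but -0.06 in shYthdf2+EV against shscr+EV and -0.16 in shYthdf2+Mut against shYthdf2+EV. These correlations are across genes, which are not independent replicates. Transcripts of *Krt8* (57.1% GC), *Krt18* (56.4%), *Hand1* (57.0%) and *Tead4* (58.1%) were richer in GC than the median gene (49.9%), and those of *Tfap2c* (52.7%) somewhat richer. Relative to the median gene in the same of 20 GC classes, the log2 ratio in shYthdf2+Mut against shYthdf2+WT was -0.79 for *Krt8*, -0.59 for *Krt18*, -0.78 for *Hand1*, -0.37 for *Tead4* and -0.33 for *Tfap2c*, all nearer to 0 than before. In shYthdf2+WT against shYthdf2+EV it was 0.77 for *Krt8* and 0.39 for *Tead4*. In shYthdf2+EV against shscr+EV the same step left *Krt8* at -0.99 and *Tead4* at -0.52. The genes of chromosome 15, where the keratin pair lies, had a median log2 ratio of -0.01 in shYthdf2+EV against shscr+EV and of -0.09 in shYthdf2+Mut against shYthdf2+WT.

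Among the genes with a mean of at least 200 reads, *Gsn* and *Ybx2* were among those with the pattern over the 4 libraries most like that of *Krt8*, out of 10816 compared. Likeness was the root mean square difference of centred log2 CPM, which was 0.025 for *Gsn* and 0.037 for *Ybx2*, over 4 libraries only. *Gsn*, which encodes the actin-severing protein gelsolin, had 651, 359, 663 and 306 reads in shscr+EV, shYthdf2+EV, shYthdf2+WT and shYthdf2+Mut. Among the members with a mean of at least 50 reads, *Hand1* was the nearest to *Krt8* (0.11), and *Tead4* and *Tfap2c* were the nearest to each other (0.099).

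Many other genes of epithelia were low in the same libraries as the keratin pair. Of 17 further genes of simple epithelium that passed the filter, of 18 listed, 11 had an interval below 0 in shYthdf2+EV against shscr+EV and 1 had one above, beside 22.9% and 23.2% of all genes compared, and 3 were 2-fold lower, beside 5.70%, and 0 higher, beside 7.10%. Their median log2 ratio was -0.42. *Krt19*, a type I keratin of simple epithelia, had 788, 337, 1097 and 264 reads in the order of libraries used above. Its log2 ratio was -1.41 (-1.68 to -1.15) in shYthdf2+EV against shscr+EV and -2.00 (-2.29 to -1.73) in shYthdf2+Mut against shYthdf2+WT. The claudins of tight junctions that the naming rule picked were also lower in shYthdf2+EV and shYthdf2+Mut than in the other two libraries: *Cldn6* had 475, 299, 518 and 233 reads, and *Cldn7* had 93, 44, 110 and 47. *Cdh1*, which encodes E-cadherin and was picked out after its values were seen, had 26182, 17667, 23986 and 15971 reads. Its difference in shYthdf2+EV against shscr+EV was -0.75 (-0.79 to -0.71) on the log2 scale. *Ocln*, which encodes occludin and was likewise picked out after its values were seen, went the other way, with 233, 429, 243 and 373 reads and a difference of 0.69 (0.36 to 1.03). In shYthdf2+Mut against shYthdf2+WT, 10 of the 17 had an interval below 0 and 3 above, beside 23.6% and 23.9% of all genes, with a median of -0.37, and 10 had intervals below 0 in both pairs of libraries, beside 10.5% of all genes compared.

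**Figure D4:**
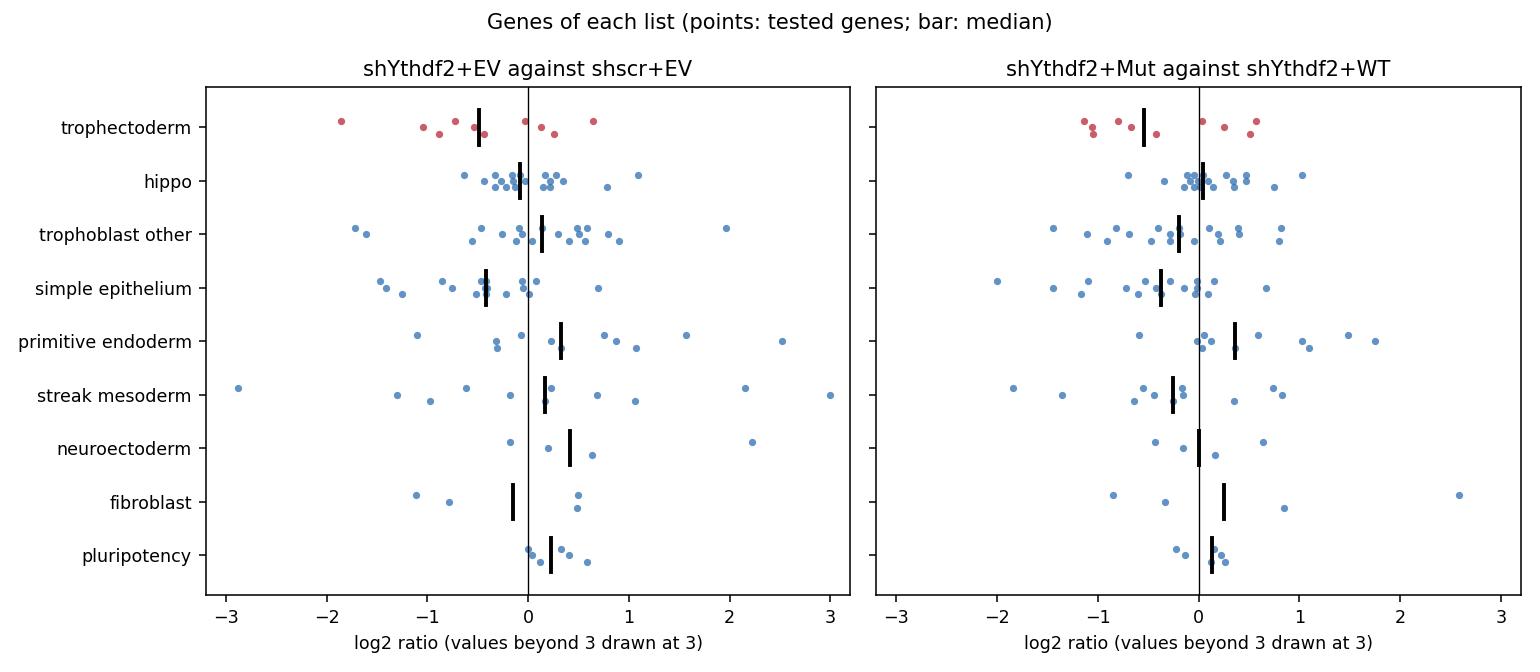
Log2 ratios of the genes of 9 lists that passed the filter (points, values beyond 3 drawn at 3) with the median of each list (bar), in shYthdf2+EV against shscr+EV (left) and shYthdf2+Mut against shYthdf2+WT (right). The trophectoderm and simple epithelium lists had the lowest medians in the left panel, -0.49 and -0.42, and again in the right panel, -0.55 and -0.37.

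Genes around the trophectoderm programme were mixed. Of 19 genes of the Hippo pathway, which controls YAP and TEAD4, 7 had an interval above 0 and 7 one below in shYthdf2+EV against shscr+EV, beside 23.2% and 22.9% of all genes compared, with a median of -0.08 and 1 gene at least 2-fold higher, beside 7.10%. That gene was *Amot*, a scaffold that holds YAP out of the nucleus, with 112, 273, 112 and 221 reads. *Lats2*, the kinase that phosphorylates YAP, had 232, 456, 283 and 461 reads, so it was also higher in shYthdf2+EV and shYthdf2+Mut. *Tead3*, a relative of *Tead4*, had 175, 128, 159 and 94 reads. *Yap1* itself had a log2 ratio of 0.28 (0.22 to 0.35) in shYthdf2+EV against shscr+EV and 0.28 (0.21 to 0.34) in shYthdf2+Mut against shYthdf2+WT. In shYthdf2+Mut against shYthdf2+WT the median of the Hippo list was 0.04.

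Of 19 further trophoblast genes that passed the filter, of 24 listed, 5 had an interval above 0 and 6 one below in shYthdf2+EV against shscr+EV, beside 23.2% and 22.9% of all genes compared, with a median of 0.14. In shYthdf2+Mut against shYthdf2+WT, 3 had an interval above 0 and 6 one below, beside 23.9% and 23.6% of all genes compared. The median there was -0.19. In both pairs of libraries, 6 had intervals below 0 and 1 above 0, beside 10.5% and 11.2% of all genes. *Dlx3*, a homeobox gene of the placental labyrinth, had 105, 36, 94 and 42 reads. In shYthdf2+EV against shscr+EV it was lower, at -1.72 (-2.59 to -0.93) on the log2 scale. *Wnt7b*, a Wnt ligand of the chorion, had 146, 54, 164 and 58 reads and was lower there as well, at -1.61 (-2.32 to -0.97). *Tfap2a*, a relative of *Tfap2c*, had 93, 184, 125 and 140 reads. Between the empty-vector libraries it went the other way, at 0.80 (0.27 to 1.34) on the log2 scale. *Tpbpa* of the spongiotrophoblast, the placental lactogens *Prl3d1* and *Prl3b1* and the placental cathepsin *Ctsq* had 0 reads in every library, which allows up to 3 pairs (6 reads) per library, or 0.17 to 0.19 CPM.

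Lists for ESCs and for other cell types that such cultures could hold are given next, for shYthdf2+EV against shscr+EV. Beside the counts of each list, 23.2% of all genes compared had an interval above 0 and 22.9% one below. The pluripotency list had 5 of 6 genes with an interval above 0 and 0 below, with a median of 0.22, and was summed at 2810 CPM in shscr+EV, 3177 in shYthdf2+EV, 3004 in shYthdf2+WT and 3105 in shYthdf2+Mut. *Pou5f1* was among the 5 with a small log2 ratio, 0.038 (0.004 to 0.072). The primitive endoderm list, for the other extraembryonic lineage of the blastocyst, had 4 of 11 above 0 and 0 below, a median of 0.33 and sums of 147 CPM in shscr+EV, 170.4 in shYthdf2+EV, 159.9 in shYthdf2+WT and 175 in shYthdf2+Mut. *Dab2*, an endocytic adaptor of that lineage, had 99, 237, 81 and 265 reads, high where the keratin pair was low. Most reads of the primitive endoderm sum were those of *Lama1* (1821, 1972, 2022 and 1932) and *Col4a1* (2146, 3070, 2648 and 2663), both picked out after their values were seen. The primitive streak and mesoderm list, to which *Eomes* and *Hand1* could also be assigned, had 2 of 11 above 0 and 2 below and summed to between 14.9 and 18.3 CPM. The neuroectoderm list had 2 of 4 above 0 and 0 below and summed to between 29.6 and 36.2 CPM. The fibroblast list had 0 of 4 above 0 and 2 below, and its sum was 40.1 CPM in shscr+EV, 22.5 in shYthdf2+EV, 33.6 in shYthdf2+WT and 23.3 in shYthdf2+Mut, with 2 or 3 of its 8 genes at 0 reads in each library. That sum was low in the same libraries as the keratin pair. *Pdgfrb* (747, 394, 731 and 393 reads) had this split and was the 1 gene of the list with intervals below 0 in both pairs of libraries. *Thy1* (448, 296, 317 and 243 reads) was highest in shscr+EV, but in shYthdf2+WT against shYthdf2+EV its log2 ratio was 0.23 (-0.11 to 0.56). *Col1a1* (51, 82, 50 and 87 reads) was high in shYthdf2+EV and shYthdf2+Mut. The part of the fibroblast genes in the result was not tested. The part of the primitive endoderm and mesoderm genes was not tested either.

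Reads of overlapping genes are a small source of doubt for the members. Counting ignored the strand, and exons of *Eomes*, *Hand1* and *Gata3* share 173, 40 and 77 bases with *Gm33408*, *Gm32915* and *9230102O04Rik*. Reads in such shared bases were left out of the table, and those neighbours had at most 6 reads in any library. Exons of the other 7 members overlap no other gene. Reads that matched several places equally were also left out, which lowers the counts of genes with processed pseudogenes, as keratin genes have, by an amount that the table does not show.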

How the data were processed

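Poly(A)+ RNA-seq of E14 ESCs was analysed from 1 table of raw counts that the authors deposited, with 4 libraries assigned to groups by their titles (0 count columns were given no sample). Per the file headers, the authors counted reads (not pairs) at exons of the mm39 RefSeq annotation with featureCounts 2.0.3, unstranded although the kit marked strand, without multi-mapping reads or reads on several genes. The submitters' processing notes name fastp 0.19.4, HISAT2 2.2.1, DESeq2 1.40.2 and mm10; how mm10 relates to this table is not given in the sources used here. Which shRNA against *Ythdf2* was used is not in the labels.

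Libraries were scaled by TMM (edgeR 4.0.16, R 4.3.3; factors 0.976, 1.01, 1.01 and 1.01) on the 18586 genes with a mean of at least 10 reads. Log2 ratios used a prior count of 0.5, and a gene was called at 2-fold. Intervals are exact 95% intervals, Clopper-Pearson for ratios and Poisson for levels, on reads divided by 2. The steps were tested on simulated data. Alternatives were another scaling, prior, filter or fold, and, chosen after seeing the data, GC and length corrections and the counts of intervals that exclude 0. GC content came from GENCODE transcripts of mm10.

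The 10 members and the 9 gene lists were chosen with earlier results of these data known. Named were all members, *Ythdf2*, *Pou5f1*, *Nanog*, *Yap1*, from each list at most the 3 genes with the largest absolute log2 ratio in shYthdf2+EV against shscr+EV among means of at least 50 reads (not all are printed), and the 3 genes nearest to *Krt8*, the member with the widest range among means of at least 50 reads. One of these genes is not reported here.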

Additional observations from a re-analysis of the deposited data

How the results depend on the processing

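Of 440 values recomputed under alternatives, for 52 results, 0 changed sign among called values, 419 stayed within the limit set for them (1.5 times for counts, the counting interval for ratios) and 21 moved beyond it. Counts of members at least 2-fold different turned on members near the threshold. With a mean of at least 50 reads, which drops *Cdx2*, *Elf5* and *Gata3*, they were 1 in shYthdf2+EV against shscr+EV, 0 in shYthdf2+WT against shYthdf2+EV and 0 in shYthdf2+Mut against shYthdf2+EV. At 1.5-fold they were 5, 4 and 2, and 5 in shYthdf2+Mut against shYthdf2+WT. With the GC correction, and with the GC and length correction, they were 1 in shYthdf2+EV against shscr+EV and 1 in shYthdf2+Mut against shYthdf2+WT, and a prior count of 5 also left 1 in the latter. The number of members with an interval that excludes 0 in shYthdf2+Mut against shYthdf2+EV was 1 with a mean of at least 50 reads and 1 with the GC and length correction. No paired analysis was possible because each group has 1 library and the titles carry no replicate numbers; for the same reason no library could be left out. Depth limits what can be said of *Cdx2*, *Elf5* and *Gata3*.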
